A study of Rattus norvegicus with 18 samples.

Results

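The genes described here encode proteins that neutrophils make and store at successive stages of their maturation in the marrow. They are defined by symbol, with no threshold on a measured value, although the list was drawn up with earlier results of these data known: Mpo, Elane, Prtn3 and Ctsg for the primary granule, Lcn2, Camp and Ltf for the secondary granule, and S100a8 and S100a9 for the late, cytosolic stage. All 9 are among the 17337 genes of the count table. Of these 9, 8 passed the filter on low counts, as did 11814 genes of the whole table. The exception was Ltf.

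Neutrophils arise in marrow from promyelocytes, which fill the primary or azurophil granules with myeloperoxidase and serine proteases under the control of the transcription factors C/EBP alpha, PU.1 and RUNX1. Myelocytes and metamyelocytes then stop that programme and load secondary granules with lipocalin, cathelicidin and lactoferrin, a step that needs C/EBP epsilon. S100a8 and S100a9 accumulate in the cytosol late and form calprotectin, which binds zinc, manganese and calcium. Because the mRNAs of the granule proteins are made at different stages, their balance in marrow is commonly read as a measure of the age of the granulocyte precursors present.

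Gene expression was measured by sequencing of polyadenylated RNA in 18 libraries from wild-type (WT) rats with a critical-sized defect of the radius. The defect held a 3D-printed scaffold of polycaprolactone without particles (PCL), of PCL loaded with microparticles of calcium phosphate (CaP), or of PCL loaded with chitosan nanoparticles of amorphous calcium phosphate (ACPC-NP). Cells came from repair bone within 1 mm of the scaffold, 2 or 6 weeks after implantation, which gives 6 groups with 3 libraries in each. Marrow cells, treated with red cell lysis buffer and enzymes, were pooled with cells digested out of bone, so that 1 RNA sample can hold granulocyte precursors, mature neutrophils, stroma and bone cells. All groups carry an implant, and no library of intact bone was analysed here. The labels give no age, and whether replicate libraries are separate animals is not stated, so the p-values measure the spread between these libraries, which may be technical. In such bulk samples, fewer neutrophil precursors and less of an mRNA in each of them cannot be told apart.

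Total counts ran from 18880604 to 27186587 per library. Levels are CPM, that is counts scaled to a common library size after TMM normalisation, and differences are log2 fold changes ± standard error with edgeR's adjusted p. ACPC-NP week 2 replicate 3 stood apart from the other 17 libraries: its score on the leading principal component was 91.4, with scores of -23.9 to 25.5 elsewhere, and its TMM factor was 0.706 against 0.950 to 1.11. Its summed level of monocyte and macrophage markers was 3621 CPM against 774 to 1478, and of the immediate early genes 16735 against 2071 to 5535. The main values that rest on it are also given without it. Markers of marrow and of bone were present, as the tissue label has it: erythroid markers summed to between 24200 and 73170 CPM, B cell markers to between 978 and 2333, and osteoblast markers to between 4697 and 26325. Of the marker lists, genes including Hba-a1, Cd79a, Ccr2 and Trac were matched to no row of the table.

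The promoters of 7 of the 9 genes were found in the RefSeq table of assembly GRCr8. The stretches of 250 bases before the annotated start are shown for the 3 primary granule genes found there, because these genes varied together over the libraries while Prtn3 stood lower relative to Mpo at week 6, for S100a9 as the late gene, and for Lcn2, which varied apart from the rest. They lie at chr10:73092152-73092401 (plus strand) for Mpo, chr7:10476197-10476446 (minus strand) for Prtn3, chr15:33907597-33907846 (minus strand) for Ctsg, chr3:36081781-36082030 (minus strand) for Lcn2 and chr2:178490623-178490872 (minus strand) for S100a9. Each is written 5′ to 3′ on the strand of its gene, and capitals mark matches, on either strand, to TTNCNNAA (a C/EBP pattern), GAGGAA (the PU.1 core) and TGTGGT (the RUNX core).
Mpo: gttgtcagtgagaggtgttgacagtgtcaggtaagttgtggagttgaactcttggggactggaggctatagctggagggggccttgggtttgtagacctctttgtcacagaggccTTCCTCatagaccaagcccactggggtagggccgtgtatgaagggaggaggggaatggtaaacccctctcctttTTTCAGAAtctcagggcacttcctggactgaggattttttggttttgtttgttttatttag
Prtn3: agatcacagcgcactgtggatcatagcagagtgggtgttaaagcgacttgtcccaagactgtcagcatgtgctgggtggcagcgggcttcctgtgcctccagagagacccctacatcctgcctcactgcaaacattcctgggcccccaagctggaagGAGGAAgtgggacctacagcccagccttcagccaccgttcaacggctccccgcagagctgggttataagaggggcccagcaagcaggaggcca
Ctsg: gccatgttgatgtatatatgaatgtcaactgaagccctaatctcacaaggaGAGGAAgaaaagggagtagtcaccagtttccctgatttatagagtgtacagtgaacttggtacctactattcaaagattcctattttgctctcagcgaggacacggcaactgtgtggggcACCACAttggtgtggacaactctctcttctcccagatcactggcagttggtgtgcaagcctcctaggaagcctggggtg
Lcn2: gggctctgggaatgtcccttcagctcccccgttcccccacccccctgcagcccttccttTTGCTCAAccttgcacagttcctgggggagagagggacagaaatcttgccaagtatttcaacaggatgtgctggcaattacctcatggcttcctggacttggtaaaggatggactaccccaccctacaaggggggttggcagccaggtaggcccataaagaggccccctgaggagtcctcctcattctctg
S100a9: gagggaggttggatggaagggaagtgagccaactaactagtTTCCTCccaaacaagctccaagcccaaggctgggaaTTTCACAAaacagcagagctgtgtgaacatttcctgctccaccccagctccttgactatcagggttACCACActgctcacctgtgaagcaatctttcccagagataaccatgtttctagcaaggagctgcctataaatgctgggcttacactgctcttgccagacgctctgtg

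Searched over all 300 bases in the table, which run on to 50 bases after the start, Mpo held a C/EBP match that begins 61 bases before the start and a PU.1 match 135 bases before it. Prtn3 held only a PU.1 match, 93 bases before the start. Ctsg held a PU.1 match at 199 bases and a RUNX match at 79 bases before the start, with another RUNX match after the start that is not shown. S100a9 held all 3 patterns before the start: PU.1 at 209, C/EBP at 173 and RUNX at 107 bases. Lcn2 held a C/EBP match at 191 bases, and Camp held none of the 3. Matches after the start, which S100a9, Lcn2 and Ltf also had, are not shown. Over the 7 promoters, PU.1 matches were in 5, C/EBP matches in 3 and RUNX matches in 3. Among all 33469 promoters of that length in the table, the shares with a match were 27.6%, 41.3% and 17.3%. The matches describe letters in these windows and show no binding.

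Together the 9 genes took 1.30% to 3.06% of all counts of a library, lowest in PCL week 6 replicate 2 and highest in ACPC-NP week 6 replicate 1. S100a8 and S100a9 alone took 0.994% to 2.31%. Over the 18 libraries the highest level exceeded the lowest 4.45-fold for Mpo, 3.74-fold for Elane, 4.05-fold for Prtn3 and 4.53-fold for Ctsg. The range was narrower for Camp (2.24-fold), S100a8 (2.65-fold) and S100a9 (2.77-fold), and widest for Lcn2 (13.2-fold). All 4 primary granule genes were lowest in ACPC-NP week 2 replicate 3 and highest in PCL week 6 replicate 1.

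**Figure D1:**
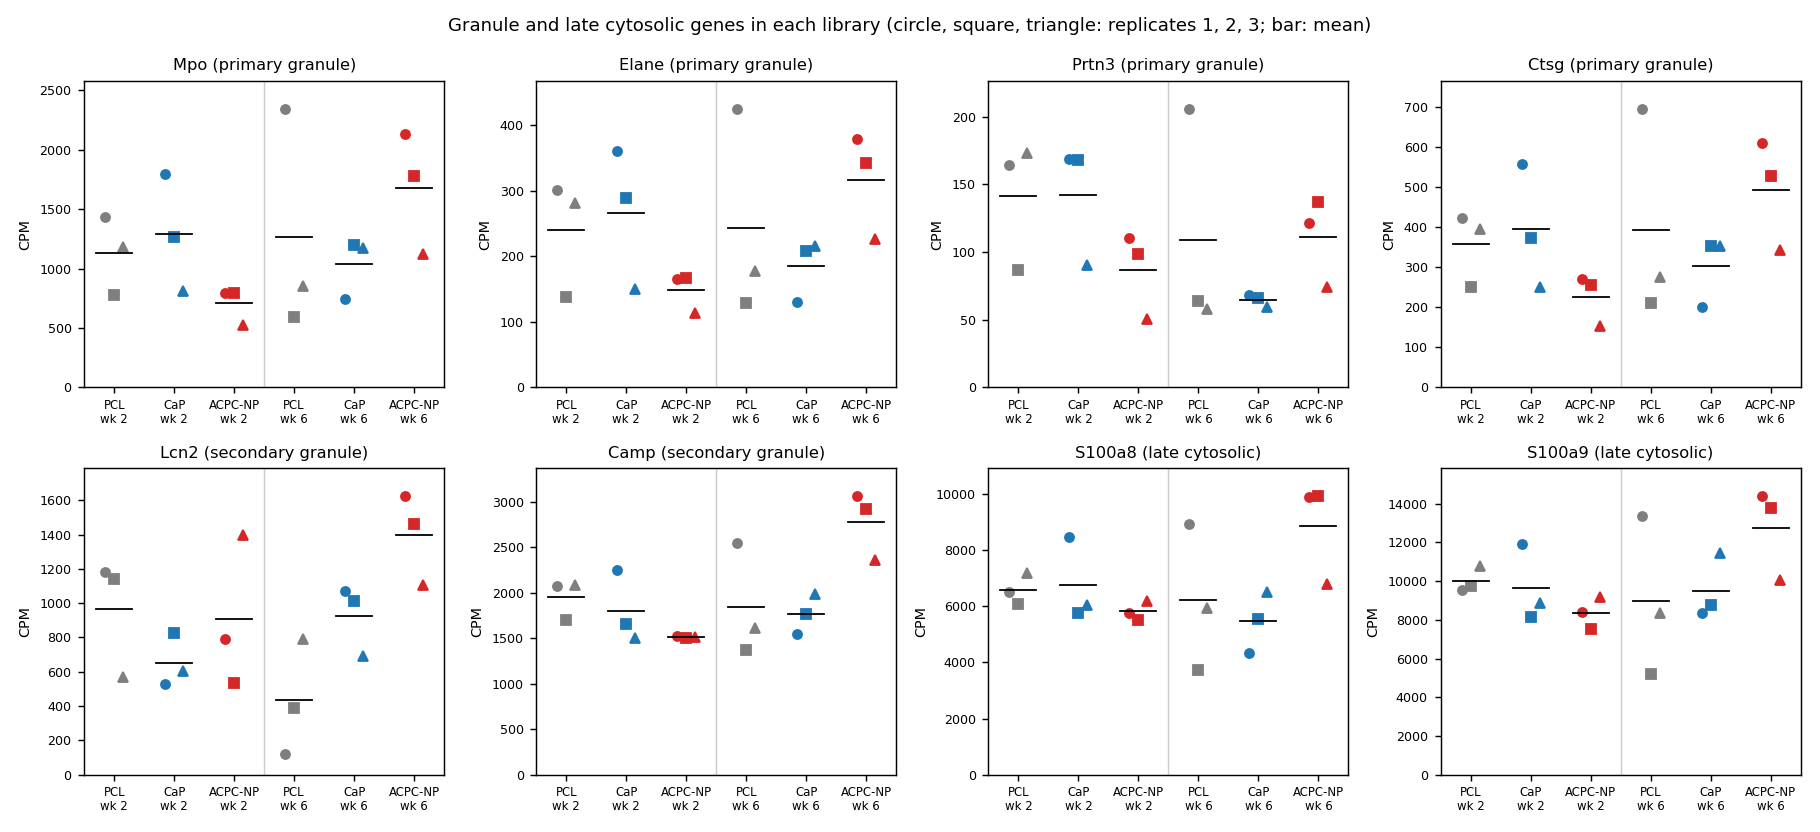
Level of each gene in every library, in CPM on a linear axis that starts at 0, by scaffold and week; circles, squares and triangles are replicates 1, 2 and 3 and bars are group means. The ACPC-NP libraries of week 6 lie above those of week 2 for Mpo, Elane, Ctsg, Camp, S100a8 and S100a9, and PCL week 6 replicate 1 lies far above the other PCL libraries of that week for the primary granule genes and below them for Lcn2.

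Mpo encodes myeloperoxidase, the haem enzyme of the primary granule that makes hypochlorous acid. In libraries listed as replicates 1, 2 and 3, here and in all that follows, Mpo stood at 797, 794 and 527 CPM around ACPC-NP at week 2 and at 2129, 1783 and 1125 at week 6. Around CaP it stood at 1794, 1262 and 808 at week 2 and at 740, 1202 and 1176 at week 6. Around PCL it stood at 1438, 775 and 1181 at week 2 and at 2345, 590 and 854 at week 6. The ACPC-NP ranges of the weeks did not overlap, whereas those of CaP and of PCL did. Ordered by group mean, Mpo was lowest in ACPC-NP week 2 (706 ± 155, SD, n = 3) and CaP week 6 (1039 ± 259), followed by PCL week 2 (1131 ± 334), PCL week 6 (1263 ± 946) and CaP week 2 (1288 ± 493), and highest in ACPC-NP week 6 (1679 ± 510). Neighbours in that order differed by less than their SD, except ACPC-NP week 2 from CaP week 6.

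Elane, neutrophil elastase, stood at 165, 167 and 114 CPM around ACPC-NP at week 2 and at 379, 342 and 227 at week 6. Its levels around CaP were 360, 289 and 149 at week 2 and 131, 209 and 215 at week 6, and around PCL 302, 138 and 281, then 425, 128 and 178. Ctsg, cathepsin G, followed the same course, with 270, 254 and 154 CPM around ACPC-NP at week 2 and 609, 526 and 342 at week 6. For both proteases the ACPC-NP libraries of week 6 all lay above those of week 2, and the PCL and CaP libraries of the weeks overlapped.

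Prtn3 encodes proteinase 3, another serine protease of the primary granule. Prtn3 stood at 111, 98.6 and 50.8 CPM around ACPC-NP at week 2 and at 122, 137 and 74.2 at week 6. Around CaP it stood at 169, 168 and 90.4 at week 2 and at 68.2, 65.7 and 59.5 at week 6, and around PCL at 164, 86.4 and 173, then 206, 63.8 and 57.6. Thus the ACPC-NP weeks overlapped for Prtn3, and it was the CaP libraries that separated, with all 3 lower at week 6.

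Camp, the cathelicidin precursor of the secondary granule, had the narrowest range in TMM-scaled CPM over the libraries among the 8 tested genes. That rank depends on the scaling. Around ACPC-NP Camp stood at 1521, 1500 and 1510 CPM at week 2 and at 3063, 2922 and 2365 at week 6. The CaP libraries held 2251, 1659 and 1500, then 1546, 1765 and 1986, and the PCL libraries 2073, 1696 and 2091, then 2548, 1369 and 1615. Camp in the ACPC-NP libraries of week 6 therefore lay above every CaP library of both weeks, with the lowest ACPC-NP value, 2365, also under 1 PCL library at 2548. The closeness of the ACPC-NP values of week 2 rests on TMM scaling. There the raw counts of Camp were 38635, 38037 and 26901, at total counts of 24367545, 24824435 and 25217221.

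Lcn2, the siderophore-binding lipocalin, showed another pattern. Around ACPC-NP it stood at 789, 536 and 1396 CPM at week 2 and at 1623, 1461 and 1107 at week 6. The CaP libraries held 530, 827 and 604, then 1073, 1013 and 689. The PCL libraries held 1182, 1139 and 572 at week 2 and 123, 391 and 792 at week 6. The lowest Lcn2 value of the series thus came from PCL week 6 replicate 1, the library with the highest primary granule mRNA, and the highest value of week 2 from ACPC-NP replicate 3, the library with the lowest.

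Ltf, lactoferrin, was close to undetected, with 0 to 12 counts per library and at most 0.523 CPM. It was at 0 counts in CaP week 2 replicate 2 and ACPC-NP week 2 replicate 2, where a count of 0 allows at most 3 counts, or 0.126 and 0.121 CPM of raw total. These are counts assigned to Ltf, in libraries where Camp and Lcn2 were abundant, and whether the annotation used for counting covers the Ltf transcript was not tested. No fold is given.

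S100a8 and S100a9, the calprotectin subunits, held the largest share of counts among the 9 genes. S100a8 stood at 5749, 5510 and 6184 CPM around ACPC-NP at week 2 and at 9894, 9918 and 6786 at week 6. Its CaP libraries held 8470, 5751 and 6050, then 4332, 5548 and 6502, and its PCL libraries 6501, 6096 and 7180, then 8946, 3738 and 5953. S100a9 stood at 8381, 7524 and 9181 CPM around ACPC-NP at week 2 and at 14387, 13793 and 10035 at week 6. It ran from 8130 to 11930 around CaP and from 5187 to 13357 around PCL over both weeks. For both genes the ACPC-NP ranges of the weeks were separate. ACPC-NP week 2 replicate 3 is the highest of its group for both genes in CPM, although they took 1.09% of its raw counts against 1.47% and 1.33% in the other libraries of that group.

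The course over time around each scaffold was read from week 6 against week 2. Around ACPC-NP, the 8 tested genes were all above 0 on the log2 scale, with a median difference of 0.75 against -0.03 over all genes. Camp was 0.88 ± 0.21 higher (95% interval 0.43 to 1.34, adjusted p = 0.087), Mpo 1.25 ± 0.45 (adjusted p = 0.156), Ctsg 1.12 ± 0.43 (adjusted p = 0.171) and Elane 1.09 ± 0.43 (adjusted p = 0.188). S100a8 was 0.61 ± 0.27 higher (adjusted p = 0.224) and S100a9 0.61 ± 0.27 (adjusted p = 0.233), while Lcn2 (0.62 ± 0.50) and Prtn3 (0.35 ± 0.45) had intervals that included 0. None of the 8 passed the threshold in edgeR's quasi-likelihood test, where 0.00846% of all genes did. At an unadjusted p under 0.05, 6 of the 8 were counted, against 19.8% of all genes. Those 6 were also the genes whose ACPC-NP libraries of week 6 all lay above those of week 2, against 9.23% of all genes. Both counts compare the same ACPC-NP libraries. The 6 genes also varied together over the libraries, as given below, so they are not 6 independent readings.

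By DESeq2, Camp passed in this comparison (adjusted p = 0.00299), as did 6.55% of all genes. Without ACPC-NP week 2 replicate 1, Camp also passed in edgeR at 0.89 (adjusted p = 0.0465), where 7.38% of all genes did. No member passed when any of the other 5 ACPC-NP libraries was left out, with smallest adjusted p of 0.0800 to 0.293 by edgeR. The 0.293 came without ACPC-NP week 2 replicate 3, the library that stood apart. All 8 were then above 0 with a median of 0.92, and Camp stood at 0.90 ± 0.24 and Mpo at 1.10 ± 0.51. Lcn2 moved to 1.10 ± 0.55 and Prtn3 to 0.11 ± 0.48. Summed markers of other cell types also had separate ranges in these groups. Erythroid markers summed to between 54695 and 73170 CPM in the ACPC-NP libraries of week 6 against 29049 to 35656 at week 2, eosinophil and mast cell markers to between 6675 and 12304 against 2296 to 4943, and osteoblast markers to between 4697 and 7872 against 7910 to 21894. Monocyte and macrophage markers, from cells that can also hold S100a8 and S100a9 mRNA, summed to between 1098 and 1170 CPM at week 6 against 1243 to 3621 at week 2. All 10 tested erythroid markers were above 0 in this comparison, as were 7 of 12 eosinophil and mast cell markers, 1 of 10 osteoblast markers and 1 of 9 monocyte and macrophage markers. All 10 skeletal muscle markers were above 0 as well, although their sums overlapped between the weeks. The part of these cell types in the result was not tested.

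Around CaP the 8 genes had a median of -0.31 between week 2 and week 6, with 1 above 0 (3 when libraries were scaled by total count), and none passed (0% of all genes). Without CaP week 2 replicate 1 the median was -0.02 with 4 above 0, and without CaP week 6 replicate 1 it was -0.12 with 3 above 0. Prtn3 had a difference of -1.14 ± 0.46 there (adjusted p = 0.953). Its CaP libraries of week 6 all lay below those of week 2, as did 7.93% of all genes. Around PCL the median was -0.08 with 3 above 0, and none passed (0% of all genes). That median moved with single PCL libraries. Without week 6 replicate 1 all 8 were below 0, with a median of -0.59. Without week 6 replicate 2, 6 of 8 were above 0 with a median of 0.15, and without week 2 replicate 2 all 8 were below 0 with a median of -0.18. None passed in any of these. In PCL week 6 replicate 1 B cell markers summed to 996 CPM against 2139 and 2333 in the other libraries of its group, and tertiary granule genes to 6344 against 2562 and 3311. Over the mean of the 3 scaffolds, Mpo differed by 0.37 ± 0.26 and Prtn3 by -0.39 ± 0.26, and none of the 8 genes passed, where 0.686% of all genes did. At an unadjusted p under 0.05, edgeR counted 1 of the 8 around CaP, 1 around PCL and 0 over the mean. The shares over all genes were 4.82%, 9.87% and 14.6%. DESeq2 called 0 of the 8 in each. Over the whole table it called 5 genes around CaP, 29 around PCL and 377 over the mean.

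**Figure D2:**
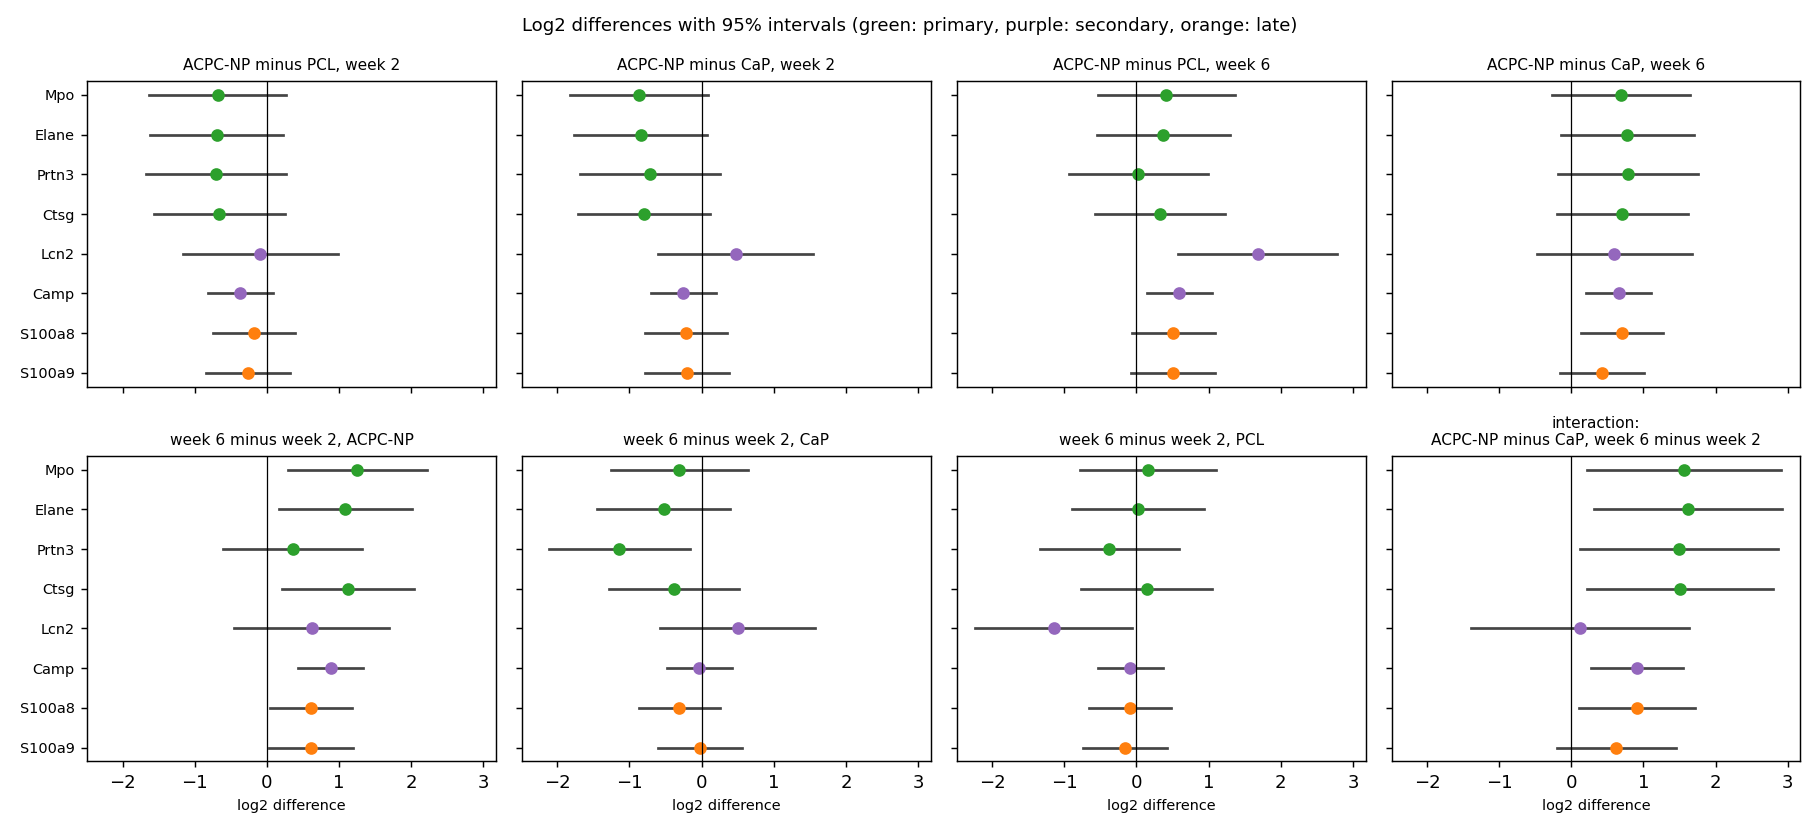
Log2 differences of the 8 tested genes (points) with unadjusted 95% intervals (lines) in 8 comparisons, with the line at 0 for no difference; the last panel is the difference between the week effects of ACPC-NP and CaP. For week 6 against week 2 around ACPC-NP all 8 points lie above 0, and Camp has the narrowest interval, 0.43 to 1.34.

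Whether the passage of time acted differently around the scaffolds was tested as an interaction. The week effect was larger around ACPC-NP than around CaP by 1.56 ± 0.63 for Mpo (adjusted p = 0.318), 1.62 ± 0.61 for Elane (adjusted p = 0.304), 1.50 ± 0.64 for Prtn3 (adjusted p = 0.339) and 1.51 ± 0.60 for Ctsg (adjusted p = 0.316). It was larger by 0.91 ± 0.30 for Camp (adjusted p = 0.267) and 0.92 ± 0.38 for S100a8 (adjusted p = 0.324), and for Lcn2 the interval ran from -1.39 to 1.64. Without ACPC-NP week 2 replicate 3 the values were 1.39 for Mpo, 1.46 for Elane, 1.23 for Prtn3, 1.29 for Ctsg, 0.91 for Camp, 0.97 for S100a8 and 0.58 for Lcn2. No gene passed in edgeR among the 8 or in the whole table (0%), and 6 of the 8 were under an unadjusted p of 0.05 against 14.2% of all genes. DESeq2 called 0 of the 8 and 183 genes of the whole table. Against PCL, the interaction was 0.97 ± 0.30 for Camp (adjusted p = 0.278) and 1.77 ± 0.71 for Lcn2 (adjusted p = 0.299), the pair under an unadjusted p of 0.05, against 15% of all genes. None passed there in edgeR (0% of all genes). DESeq2 called 0 of the 8 and 132 genes of the whole table. Without PCL week 6 replicate 1, Camp passed at 1.26 (adjusted p = 0.0468), as did 0.519% of all genes. In the interaction with PCL, Camp stood at 0.99 and Lcn2 at 2.25 without ACPC-NP week 2 replicate 3. Both comparisons share the ACPC-NP libraries. Between CaP and PCL the interaction left all 8 uncalled in edgeR (0% of all genes), with Lcn2 at 1.65 ± 0.71. DESeq2 called 0 of the 8 and 2 genes of the whole table. At an unadjusted p under 0.05, 1 of the 8 was counted, against 1.68% of all genes. Prtn3 stood at -0.77 ± 0.64 there, and without PCL week 6 replicate 1 all 8 were above 0. Lcn2 stood at 123 CPM in that library, against 391 and 792 in the other PCL libraries of week 6. Both Lcn2 interactions with PCL include that library, and their values without it are not given here.

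Which scaffold held more granule mRNA was compared within each week. At week 2 the ACPC-NP libraries held less than the PCL libraries for all 8 tested genes by fitted difference, with a median of -0.52 against -0.01 over all genes. The 4 primary granule genes stood together, at -0.68 ± 0.45 for Mpo (adjusted p = 0.493), -0.69 ± 0.43 for Elane, -0.70 ± 0.45 for Prtn3 and -0.66 ± 0.43 for Ctsg. Camp differed by -0.37 ± 0.21 (adjusted p = 0.426), S100a9 by -0.26 ± 0.27, S100a8 by -0.18 ± 0.27 and Lcn2 by -0.09 ± 0.50. None passed (0% of all genes in edgeR), and 0 were under an unadjusted p of 0.05 against 15.7% of all genes. DESeq2 called 0 of the 8 and 632 genes of the whole table. For Camp and S100a9 every ACPC-NP library lay below every PCL library, as for 7.4% of all genes. Without ACPC-NP week 2 replicate 3 the median was -0.45, with all 8 below 0 and Lcn2 at -0.55. Only 7 of 8 were below 0 without ACPC-NP replicate 1 or 2, or without PCL replicate 1 or 2, of that week. Monocyte and macrophage markers summed to between 1243 and 3621 CPM in the ACPC-NP libraries of week 2 against 789 to 929 around PCL and 783 to 1110 around CaP, with 8 of 9 tested markers above 0 in each comparison. B cell markers summed to between 1009 and 1315 against 1646 to 1725 around PCL, with 2 of 9 above 0. Their part in the result was not tested. Against CaP at week 2, ACPC-NP libraries gave -0.87 ± 0.45 for Mpo (adjusted p = 0.373) and 0.47 ± 0.50 for Lcn2, the latter being the 1 of 8 above 0. Lcn2 stood at 0.01 and Mpo at -0.70 without ACPC-NP week 2 replicate 3. With all libraries none passed in edgeR (0% of all genes). DESeq2 called 0 of the 8 and 595 genes of the whole table. Of the 8, 0 were under an unadjusted p of 0.05, against 15.7% of all genes. For Mpo all ACPC-NP libraries lay below all CaP libraries, as for 7.91% of all genes. CaP and PCL at week 2 had a median difference of 0.02 and no gene called (0% of all genes, and 0 by DESeq2). Of the 8, 0 were under an unadjusted p of 0.05, against 1.55% of all genes. The intervals were -0.76 to 1.14 for Mpo and -0.57 to 0.34 for Camp. In that comparison 5 of 8 were above 0, and all 8 were below 0 without CaP week 2 replicate 1 (median -0.18) or without PCL week 2 replicate 2 (median -0.10).

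At week 6 the fitted levels around ACPC-NP were above those around PCL. Lcn2 was 1.68 ± 0.52 higher around ACPC-NP than around PCL (95% interval 0.58 to 2.78, adjusted p = 0.0969), and every ACPC-NP library lay above every PCL library, as for 12.8% of all genes. Camp was 0.59 ± 0.21 higher (adjusted p = 0.130), S100a8 0.51 ± 0.27, S100a9 0.51 ± 0.27 and Mpo 0.41 ± 0.44, while Prtn3 was at 0.02 ± 0.45. None passed (0% of all genes), 2 of the 8 were under an unadjusted p of 0.05 against 21.9% of all genes, and DESeq2 called Lcn2 (adjusted p = 0.0226) and 7.81% of all genes. All 8 were above 0, with a median of 0.46, or 7 of 8 when libraries were scaled by total count, which put Prtn3 at -0.03.

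The comparison with PCL at week 6 depended on single libraries. Without PCL week 6 replicate 2 the median was 0.16 with 7 of 8 above 0 (smallest adjusted p = 0.356 by edgeR), and without ACPC-NP week 6 replicate 1 it was 0.32 with 7 of 8. Without PCL week 6 replicate 1, Camp was 0.88 higher (adjusted p = 0.00866), S100a9 0.90 (adjusted p = 0.0250) and S100a8 0.85 (adjusted p = 0.0352), and these 3 of the 8 passed in edgeR, as did 15% of all genes. Mpo was then 1.20 higher (adjusted p = 0.0509) and Lcn2 1.22 (adjusted p = 0.0758). Erythroid markers summed to between 54695 and 73170 CPM in the ACPC-NP libraries against 25282 to 40507 in the PCL libraries of that week, and 10 of 10 tested markers were above 0. B cell markers summed to between 978 and 1248 against 996 to 2333, with 1 of 9 above 0. Their part in the result was not tested.

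Against CaP at week 6, all 8 genes were higher around ACPC-NP by fitted difference, with a median of 0.70 against 0.00 over all genes. Camp differed by 0.66 ± 0.21 (adjusted p = 0.520), S100a8 by 0.70 ± 0.27 (adjusted p = 0.520), Prtn3 by 0.78 ± 0.45 and Elane by 0.77 ± 0.43. None passed in edgeR (0% of all genes), and 2 were under an unadjusted p of 0.05 against 9.34% of all genes. DESeq2 called 0 of the 8 and 23 genes of the whole table. For 5 of the 8, namely Elane, Prtn3, Lcn2, Camp and S100a8, every ACPC-NP library lay above every CaP library, as for 12.3% of all genes. Erythroid markers summed to between 54695 and 73170 CPM around ACPC-NP against 28415 to 39884 around CaP, with 10 of 10 above 0. B cell markers summed to between 978 and 1248 against 1337 to 1849, with 0 of 9 above 0, and T and NK cell markers to between 321 and 362 against 266 to 302, with 7 of 11 above 0. Their part in the result was not tested. Between CaP and PCL at week 6 the median was -0.23 with 2 above 0. None passed (0% of all genes, and 0 of the 8 by DESeq2). Of the 8, 1 was under an unadjusted p of 0.05, Lcn2 at 1.09 ± 0.51, against 2.57% of all genes. Without PCL replicate 1 all 8 were above 0 in that comparison, with a median of 0.28, and none passed.

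The genes of the primary granule varied together, and Prtn3 less closely than the others. Over the 18 libraries, log2 CPM of Mpo correlated with Ctsg at Pearson r = 0.988 and Spearman rho = 0.975, and with Elane at r = 0.975. For Mpo and Prtn3 r was 0.719, and 0.869 once the group means were removed. S100a8 and S100a9 correlated at r = 0.940, Camp with S100a8 at 0.891 and Mpo with Camp at 0.888. Lcn2 stood out, with r between -0.328 and 0.087 against the other 7, and between -0.643 and -0.407 within groups. Without the 2 libraries farthest from the median of Mpo, r with Mpo was 0.984 for Ctsg and 0.590 for Prtn3, and for Lcn2 it turned from -0.168 to 0.494. The absence of a common slope of Lcn2 with Mpo thus rests on those libraries. Without the 2 libraries farthest from the median of each other primary granule gene, r with Lcn2 was 0.092 for Prtn3, 0.359 for Elane and 0.397 for Ctsg. The values within groups were not computed without such libraries. The points share library, depth and tissue mixture, so these values describe the libraries and carry no p.

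**Figure D3:**
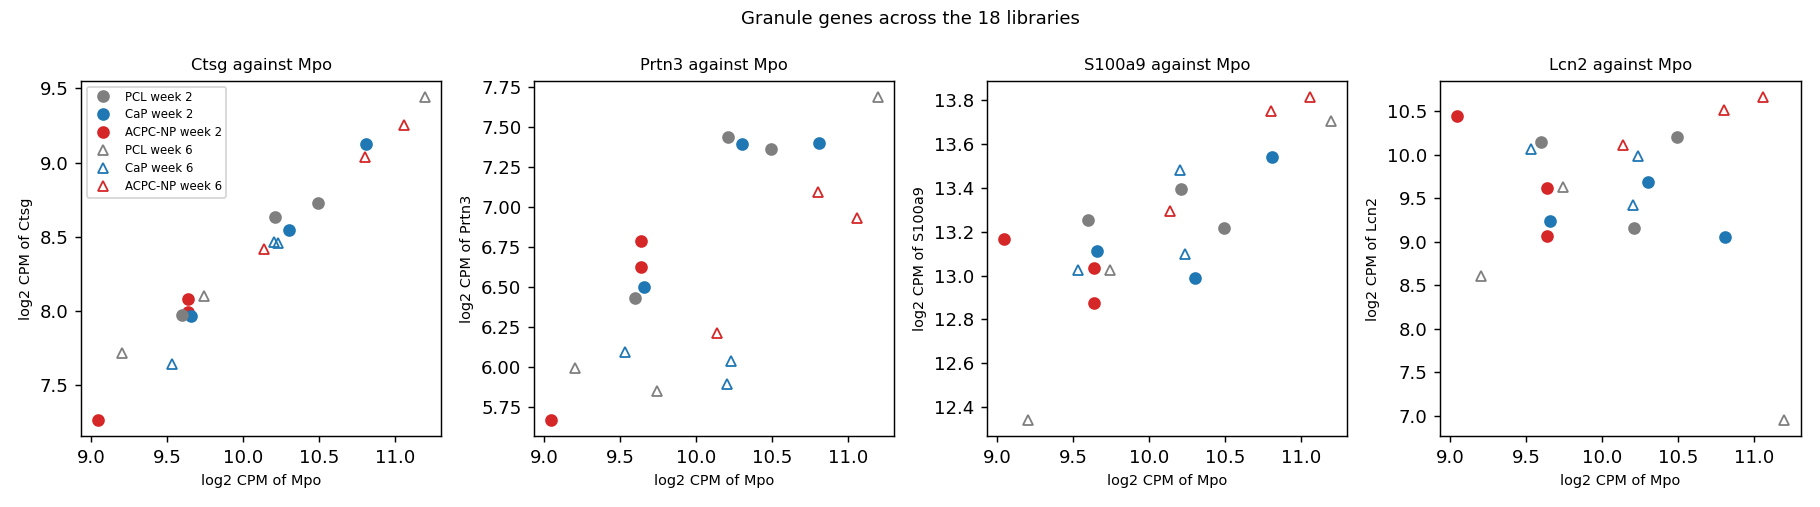
Log2 CPM of Ctsg, Prtn3, S100a9 and Lcn2 (vertical axes) against log2 CPM of Mpo (horizontal axis) in the 18 libraries; filled circles are week 2, open triangles week 6, and colours mark the scaffold. Ctsg follows Mpo in 1 line, Prtn3 mostly lies lower at week 6 at a like level of Mpo, and Lcn2 shows no common slope with Mpo over all 18 libraries.

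The position of Prtn3 relative to Mpo appeared most plainly as a ratio within each library. Prtn3 stood at 9.40% to 14.7% of Mpo in CPM over the 9 libraries of week 2 and at 5.06% to 10.8% over the 9 of week 6. The medians were 11.4% and 6.74%. Within each scaffold the libraries of week 6 all lay below those of week 2: 5.72% to 7.67% against 9.65% to 13.9% around ACPC-NP, 6.74% to 10.8% against 11.2% to 14.7% around PCL, and 5.06% to 9.21% against 9.40% to 13.3% around CaP, where the gap was narrowest. Among 11813 genes set against Mpo in the same way, 2 had such a lower ratio in all 3 scaffolds, Prtn3 and Duoxa1, which is 0.0169%, and 0 had a higher one. This pattern was noticed after the values were seen, so it is a description with no p, and Duoxa1, a maturation factor of dual oxidase, is named for the same reason. Genes that do not follow Mpo carry its 4.45-fold range in their ratio, which hinders such separation. The 0.0169% is therefore no background for genes that vary with Mpo. How rare the pattern is among those genes was not tested.

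Elane relative to Mpo had medians of 21.0% at week 2 and 18.3% at week 6, and its weeks were separate around ACPC-NP and CaP but overlapped around PCL. Ctsg relative to Mpo overlapped between the weeks around every scaffold, at 29.2% to 33.9% and 27.0% to 35.6%. Prtn3 relative to Elane was lower at week 6 without overlap around ACPC-NP and PCL but not around CaP. No library scaling alters these ratios. The share of all gene pairs whose ratios separate in some scaffolds was not computed, here or for Mpo to S100a9 below. These separations are therefore descriptions only.

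**Figure D4:**
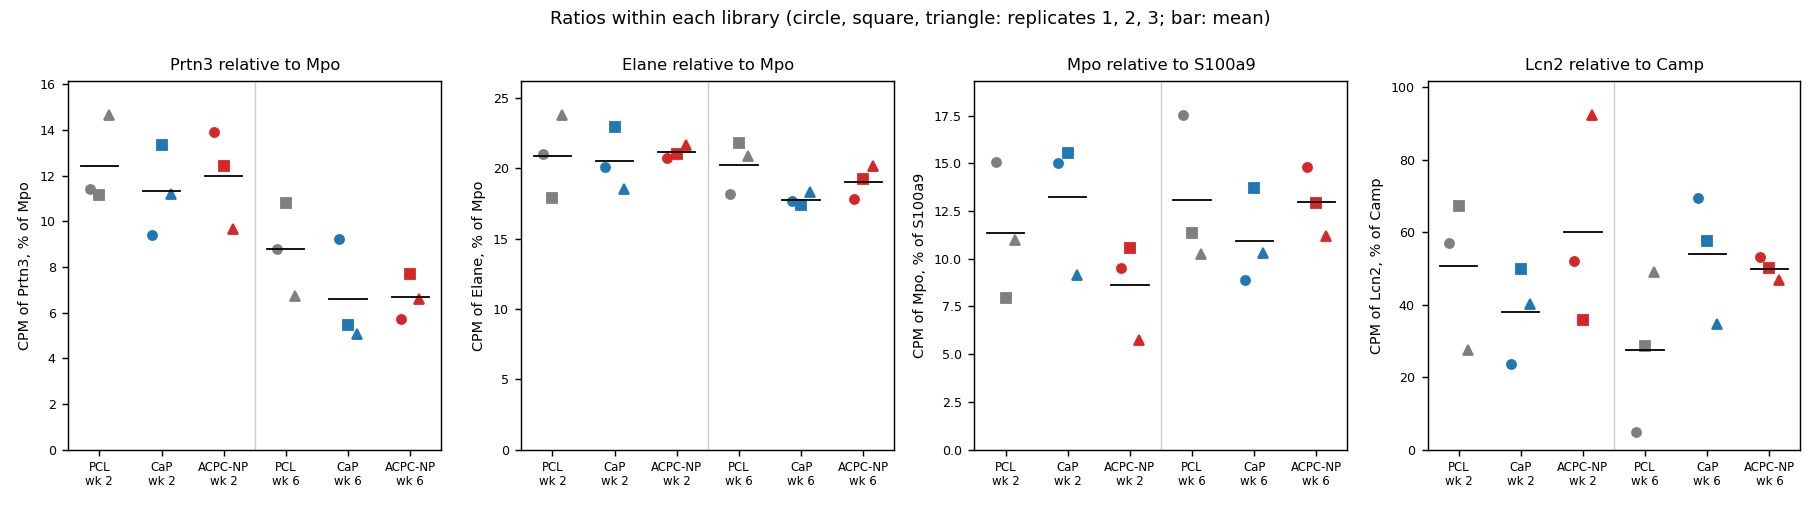
Ratios of CPM within each library, in percent, by scaffold and week, with bars at group means and axes that start at 0: Prtn3 to Mpo, Elane to Mpo, Mpo to S100a9 and Lcn2 to Camp. Prtn3 to Mpo lies lower at week 6 than at week 2 in all 3 scaffolds, while Lcn2 to Camp runs from 4.84% in PCL week 6 replicate 1 to 92.4% in ACPC-NP week 2 replicate 3.

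Between the stages, Mpo stood at 5.73% of S100a9 in ACPC-NP week 2 replicate 3 and at 17.6% in PCL week 6 replicate 1, the extremes of the series. Around ACPC-NP the mean ratio was 8.60% ± 2.54 (SD, n = 3) at week 2 and 13.0% ± 1.79 at week 6, and the libraries of the weeks did not overlap (5.73% to 10.6% against 11.2% to 14.8%). Apart from replicate 3, the ACPC-NP libraries of week 2 stood at 9.51% and 10.6%. Around CaP it was 13.2% ± 3.56 and 11.0% ± 2.48, and around PCL 11.3% ± 3.59 and 13.1% ± 3.93, with overlap in both. The mean log2 CPM of the 4 primary granule genes minus that of S100a8 and S100a9 overlapped between the weeks around every scaffold. Around ACPC-NP this balance ran from -5.68 to -4.74 at week 2 and from -4.86 to -4.59 at week 6. S100a9 exceeded S100a8 1.37-fold to 1.60-fold over the libraries of week 2, and up to 1.93-fold, in CaP replicate 1, at week 6. Lcn2 stood at 27.5% ± 22.1 of Camp in PCL week 6, against 49.9% ± 3.10 in ACPC-NP week 6 and 53.8% ± 17.6 in CaP week 6.

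Among other genes of the primary granule, 13 of 15 listed were in the table and 11 were tested. At week 6 against week 2 around ACPC-NP, 8 of the 11 were above 0 with a median of 0.40, and none passed. Without ACPC-NP week 2 replicate 3, 9 were above 0 with a median of 0.77. Np4, a neutrophil defensin of a multigene family whose reads may be shared with near-identical copies, stood at 1362 ± 399 CPM at week 2 and 2797 ± 846 at week 6 there, a difference of 1.04 ± 0.39 (adjusted p = 0.162). Lyz2, lysozyme, stood at 6650.3 ± 649 and 8768 ± 826, a difference of 0.40 ± 0.26. Of the other secondary granule genes, 14 were tested and 10 were above 0 with a median of 0.47, and none passed. Ngp, the neutrophilic granule protein, stood at 3063 ± 695 and 5203 ± 841, a difference of 0.76 ± 0.30 (adjusted p = 0.177), and Fcnb, ficolin B, at 1024 ± 114 and 1270 ± 170.

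Among the later compartments, the median of the mature surface genes changed sign without ACPC-NP week 2 replicate 3. In the same comparison 5 of 9 tertiary granule genes were above 0 with a median of 0.01, and 6 of 9 with a median of 0.30 without that library. Of the genes of secretory vesicles and the mature surface, 4 of 13 were above 0 with a median of -0.28, and 9 of 13 with a median of 0.17 without it. Mmp8, neutrophil collagenase, differed by 0.72 ± 0.27 (adjusted p = 0.161), and Mmp9, gelatinase B, by 0.25 ± 0.24. Csf3r, the receptor of granulocyte colony-stimulating factor, differed by -0.95 ± 0.41 (adjusted p = 0.219), with 596 ± 473 CPM at week 2 and 308 ± 71.5 at week 6, and by -0.06 ± 0.28 without that library. The mature surface list shares Cd14 with the monocyte and macrophage markers, Alpl with the osteoblast markers and Csf3r with the granulopoiesis factors. Its summed level was 6509 CPM in ACPC-NP week 2 replicate 3 against 1178 to 2397 in the other libraries. Of the 6 NADPH oxidase genes 4 were above 0 with a median of 0.13, with Rac2 at 0.10 ± 0.18 and Ncf1 at 0.26 ± 0.28, and without that library all 6 were above 0 with a median of 0.33.

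Regulators and partners were read in the same comparison. Of 15 granulopoiesis factors tested, 4 were above 0, with a median of -0.42 and Spi1, which encodes PU.1, at -0.42 ± 0.27. Without ACPC-NP week 2 replicate 3, 9 of the 15 were above 0 with a median of 0.01, and Spi1 stood at 0.15 ± 0.17. Of 9 neutrophil recruitment ligands 2 were above 0, with a median of -4.31. Cxcl2, a chemokine that draws neutrophils, stood at 4096 ± 5998 CPM at week 2 and 178 ± 37.7 at week 6, and Il1b at 3717 ± 5017 and 622 ± 249. The ligands summed to 24923 CPM in ACPC-NP week 2 replicate 3 and to between 460 and 2602 in all other libraries. Leaving it out gave these ligands a median of -1.61, 2 of 9 above 0, and Cxcl2 at -1.82 ± 0.55 (adjusted p = 0.330). Of 6 tested protease inhibitors 4 were above 0, with Serpinb1a, an inhibitor of elastase, cathepsin G and proteinase 3, at 0.25 ± 0.38 (0.77 ± 0.37 without that library) and Cst3 at -0.05 ± 0.25. Of 8 receptors of S100 proteins and granule peptides 4 were above 0, with Emb at 0.32 ± 0.16 and Lrp1 at -1.81 ± 0.45 (adjusted p = 0.0884), or -0.83 ± 0.29 (adjusted p = 0.372) without that library. With all 18 libraries, none of these lists held a called gene in any comparison, except that Ptx3 of the other secondary granule list was lower at week 6 over the mean of the 3 scaffolds (adjusted p = 0.0256). In that comparison 0.686% of all genes were called. Ptx3 was near the floor, with group means of 0.04 to 0.88 CPM and at most 33 counts in a library.

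The genes most like each stage were named by Spearman rho with the mean of its centred log2 CPM over the 18 libraries, among 10079 genes. For the primary granule they were Rab3d (0.971), a GTPase of secretory granules, Abo (0.953), Hrsp12 (0.948), Np4 (0.940) and Impa2 (0.932). For S100a8 and S100a9 they were Gng10 (0.920), Ifitm2 (0.905), Pglyrp1 (0.884), a peptidoglycan recognition protein of granules, Mgst2 (0.868) and Msrb1 (0.851). For Lcn2 with Camp the highest values were lower, at 0.711 for Amigo1 and 0.680 for Invs, followed by Faap24 (0.647), Dctn2 (0.635) and Spr (0.624). These values describe likeness over libraries and were chosen for it, so they carry no test.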

How the data were processed

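Polyadenylated RNA was sequenced in 18 libraries. The authors deposited a table of raw counts per gene symbol, and per the submitters' processing notes reads were handled with bcl2fastq 2.20.0, STAR 2.7.9a and featureCounts (Subread 2.0.1) on build Rnor_6.0. Annotation and strand setting were not given in the sources used here. A deposited table of normalised values was not used. The low-count filter was filterByExpr with a minimum count of 10 and a minimum total of 15, and the 11814 genes retained hold 99.98% of counts. Differences were tested with edgeR 4.0.16 in R 4.3.3: TMM, 1 term per group over all 18 libraries, robust quasi-likelihood fit (12 residual degrees of freedom), and Benjamini-Hochberg adjustment over all genes within each of 13 comparisons, threshold 0.05. Log2 CPM used a prior count of 2. The common biological coefficient of variation was 26.0%. Replicates were checked for duplicates and none was found (lowest chi-square per degree of freedom 31.8). The fit was also run on counts simulated with the dispersions estimated here. Those counts held no library that stood apart, so the run does not show how the fit handles one. Alternatives were DESeq2 1.42.0, its size factors in edgeR, no filter, the replicate number as a block, each library left out, and total count scaling, the last chosen after seeing the data. All 9 genes are named. From other lists, genes past the threshold are named, or otherwise at most the 2 with the highest mean log2 CPM. Some list genes are not reported here. The members and lists were chosen with earlier results of these data known. No protein sequence and no gene length was used, so levels are not compared between genes per length. Gene symbols were matched to RefSeq GRCr8, whose promoters are shown.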

Additional observations from a re-analysis of the deposited data

How the results depend on the processing

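None of the 104 member differences turned its direction while called. With DESeq2, 101 kept direction and call, 2 passed that had not (Lcn2 in ACPC-NP against PCL at week 6, and Camp in week 6 against week 2 around ACPC-NP, so 1 member called in each), and 1 near 0 changed sign. With the size factors of DESeq2 in edgeR, 103 were kept, and with no filter on low counts all 104. Scaling by total count, chosen after seeing the data, kept 100, and it moved the median of all genes by -0.15 in ACPC-NP against PCL and by -0.13 in ACPC-NP against CaP at week 2. Over 864 member differences with a library left out, 791 were kept, 68 that were not called changed sign, and 5 passed. Those that changed sign were not all near 0: without PCL week 6 replicate 1, Prtn3 in CaP against PCL at week 6 went from -0.76 to above 0.

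The number of genes called in the whole table moved much more. By DESeq2 it was 632 and 878 for ACPC-NP against PCL at weeks 2 and 6, 595 and 23 for ACPC-NP against CaP, 792, 5 and 29 for week 6 against week 2 around ACPC-NP, CaP and PCL, 377 for the mean of the scaffolds, and 132, 183 and 2 for the interactions of ACPC-NP with PCL, ACPC-NP with CaP and CaP with PCL. The edgeR counts were 0, apart from 1 around ACPC-NP and 81 for the mean. By total count scaling it was 32 for ACPC-NP against PCL at week 2, 1 for the weeks around PCL and 31 for the mean.

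Leaving out 1 library at a time gave 0 to 877 and 0 to 1787 genes for ACPC-NP against PCL at weeks 2 and 6, 0 to 893 for ACPC-NP against CaP at week 2, and 0 to 1 for CaP against PCL at week 6. It gave 0 to 882 around ACPC-NP, 0 to 52 around PCL and 2 to 179 for the mean, and 0 to 148, 0 to 57 and 0 to 1 for the 3 interactions. Members called ran from 0 to 3 in ACPC-NP against PCL at week 6, from 0 to 1 in its interaction, and from 0 to 1 for the weeks around ACPC-NP. The cause of these moves was not tested.

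With the replicate number as a block, 427 genes were called for ACPC-NP against PCL at week 6, 0 for the weeks around ACPC-NP, 1 for those around PCL and 49 for the mean. No member was called, and 101 of the 104 differences were kept. Correlations of same-numbered libraries' deviations ran from -0.327 to 0.420, and in 1 of 15 pairs of groups were all 3 over 0.1. They were not set against those of differently numbered libraries, so they cannot decide whether the numbers pair the libraries.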
